A study of Mus musculus with 63 samples.

Results

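The 10 genes described here encode a chosen set of paralogous subunits of the BAF chromatin remodelling complex, and not all of its subunits with paralogs. The genes are Actl6a and Actl6b, Dpf1, Dpf2, Dpf3 and Phf10, Ss18 and Ss18l1, and Smarca4 and Smarca2. They were taken by gene symbol, and all 10 were among the 23078 genes of the deposited table. The table holds RNA-seq of 63 libraries from the dorsal cerebral cortex of C57Bl/6 mouse embryos, all of them Ski knock-out and all labelled female, with no wild-type library. Newborn neurons (NBN, 13 libraries on 4 days, E15.5 to E18.5) and basal progenitors (BP, 24 libraries on 7 days, E12.5 to E18.5) were sorted as GFP-positive cells from embryos carrying Tbr2::GFP. Neural stem cells (NSC, 26 libraries on 8 days, E11.5 to E18.5) were sorted as GFP-positive cells from embryos carrying Hes5::GFP. Together these are 19 groups of cell type and day, with 2 to 6 libraries each. NBN and BP come from the same reporter line, and the labels do not say how the sort parted them. A contrast of either with NSC is also a contrast of reporter lines. The labels do not say whether libraries of a group came from separate embryos, so p-values measure the spread between these libraries, part of which may be technical.

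BAF complexes use the energy of ATP to slide or evict nucleosomes and so open chromatin to transcription factors. Each complex carries 1 of the ATPases BRG1 (Smarca4) or BRM (Smarca2), and its other positions are filled by products of small gene families. In dividing neural progenitors of the mouse the complex is known to hold ACTL6A (BAF53a), PHF10 (BAF45a) or DPF2 (BAF45d), and SS18. When progenitors leave the cell cycle and become neurons, ACTL6B (BAF53b), DPF1 (BAF45b) or DPF3 (BAF45c), and SS18L1 (CREST) take those places. The loss of ACTL6A at this step is known to involve miR-9-3p (also called miR-9*) and miR-124, which act on the 3′ UTR of Actl6a, and these microRNAs are held down in non-neural cells by the repressor REST.

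The microRNA and its matches are shown because they are the known link between neuronal fate and the fall of Actl6a. Mature sequences and promoters were taken from RefSeq (GRCm38.p6), with the seed of the microRNA, bases 2 to 8, in capitals. The gene for miR-9-3p exists in 3 copies, of which Mir9-2 lies at chr13:83738858-83738879 inside the long non-coding gene C130071C03Rik. In the 3′ UTRs of the annotation (GENCODE, GRCm38, 1 transcript per gene), the reverse complement of that seed, AGCTTTA, occurred in 2 of the 10 members. Both sites are on the plus strand, at chr3:32726625-32726647 in Actl6a and at chr19:26777487-26777509 in Smarca2, with the matched letters in capitals. Of 20872 genes searched in the same way, 11.27% had at least 1 such match, so the letters alone are common.
mmu-miR-9-3p: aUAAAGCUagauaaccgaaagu
Actl6a 3′ UTR: cacctcaacgtctgtAGCTTTAg
Smarca2 3′ UTR: ttgtcatctagaactAGCTTTAg

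The 250 bases before the RefSeq start of Actl6a (chr3:32708296-32708545, plus strand) and of Actl6b (chr5:137553296-137553545, plus strand) are printed because these paralogs had the steepest fall and the steepest rise of the set in NSC. In GENCODE the Actl6a gene spans chr3:32706298-32726973, so the Actl6a window lies inside the gene, downstream of its first annotated start. A promoter entry existed for 9 of the 10 members. In all 10 motifs were searched on both strands, none of them contained in another, with matches in capitals: the RE1 parts GGACAG and CAGCACC, the E-boxes CAGATG and CAGCTG, the GC box GGGCGG, the CCAAT box, the TATA box TATAAA, the NRF1 motif, the CREB site TGACGTCA and the RFX motif. Actl6a held 3 GC boxes and no other match, while 32.72% of 32817 mouse promoters of the same length hold at least 1. Actl6b held 3 CCAAT boxes and no other match, and 33.83% of the promoters hold at least 1. Over the 9 windows a GC box was found in 7 and a CCAAT box in 4. Only Dpf2 had the RE1 part GGACAG (18.68% of promoters) and only Phf10 an E-box CAGCTG (13.01%). The E-box CAGATG (14.46%), the RE1 part CAGCACC (5.73%), the TATA box (12.37%), the NRF1 motif (0.78%), the CREB site (1.55%) and the RFX motif (0.47%) matched in none of the 9. The Actl6a window held 19 CpG and the Actl6b window 15, against a median of 6 over all promoters.
Actl6a promoter: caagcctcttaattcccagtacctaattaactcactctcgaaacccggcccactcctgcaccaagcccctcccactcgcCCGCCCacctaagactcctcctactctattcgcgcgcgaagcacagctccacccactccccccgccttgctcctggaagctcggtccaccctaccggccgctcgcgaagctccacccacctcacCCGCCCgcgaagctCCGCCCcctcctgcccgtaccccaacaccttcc
Actl6b promoter: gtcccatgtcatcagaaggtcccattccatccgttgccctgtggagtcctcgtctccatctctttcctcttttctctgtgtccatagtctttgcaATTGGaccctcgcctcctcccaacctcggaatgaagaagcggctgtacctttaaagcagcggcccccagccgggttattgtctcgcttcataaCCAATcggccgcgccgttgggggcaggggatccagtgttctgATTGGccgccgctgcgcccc

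Values are TPM, transcripts scaled for length and to a fixed total per library, so levels of genes can be set side by side. TPM keeps no read depth, and each library summed to between 999998.3 and 1000001.9 with 16823 to 21890 genes above 0. Libraries of a group correlated with r between 0.972 and 0.998 on the log2(TPM + 1) scale. Ski transcripts stood at 17.21 to 53.11 TPM in all libraries, and 39 of the 63 libraries had at least 10 TPM summed over 4 Y-linked genes although all are labelled female. By summed TPM, stem cell markers were highest in NSC, basal progenitor markers in BP and neuron markers in NBN on the days E15.5 to E18.5. Neuron markers did not set BP above NSC on these days, with a median sum of 5760 TPM in BP and 6567 TPM in NSC. From E15.5 to E18.5, 10 neuron markers summed to 8281 to 11128 TPM in NBN, 5206 to 7452 TPM in BP and 3178 to 8132 TPM in NSC. The 8 stem cell markers summed to 190.4 to 493.4 TPM in NBN, 483 to 771 TPM in BP and 1131 to 6664 TPM in NSC, and 8 basal progenitor markers to 147 to 367 TPM, 1527 to 1965 TPM and 516 to 1456 TPM in the same order. None of the stem cell, basal progenitor and neuron markers was at 0 in any NBN, BP or NSC library. Values above 0 do not show which cells these transcripts came from. In bulk samples fewer cells of a type and less RNA per cell cannot be told apart.

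NBN differed from BP in most members. In NBN 3 subunits of neurons (Dpf1, Actl6b and Ss18l1) and the ATPase Smarca2 were higher. Lower were 3 that fill the same places in progenitors (Actl6a, Ss18 and Dpf2) and, by a small difference, the other ATPase, Smarca4. Differences were tested with limma on log2(TPM + 1) in 1 fit over all 63 libraries, averaged over the shared days, with Benjamini-Hochberg adjustment over 15231 genes. "Passed" means an adjusted p under 0.05, and "2-fold" adds a log2 difference of at least 1 in size. In NBN minus BP 8 of 10 members passed, 4 higher and 4 lower, where 58.5% of all genes passed (25.3% higher and 33.3% lower), and 4 were also 2-fold, where 10.8% of all genes were. The median size of the log2 difference was 0.88 over the 10 members and 0.26 over all genes tested. NBN and BP libraries did not overlap in TPM for 6 members (Actl6a, Actl6b, Dpf1, Dpf2, Ss18l1 and Smarca2), as for 14.1% of all genes. In NBN minus NSC the members that passed were the same except Smarca4, 4 higher and 3 lower, where 54.6% of all genes passed (21.8% higher and 32.8% lower). None of them was 2-fold there, against 8.65% of all genes, and 5 did not overlap (all of the 6 above except Actl6b), against 7.22%. Leaving out each library gave 0 to 2 members 2-fold in NBN minus NSC, where 1217 to 1489 of all genes were. For NBN minus BP it gave 3 to 4 members, where 1640 to 1708 of all genes were 2-fold. In BP minus NSC over 7 days 5 of 10 passed, 4 higher and 1 lower, where 48% of all genes passed (20.8% higher and 27.2% lower). None was 2-fold (3.03% of all genes) and none was free of overlap (0.4%). The contrasts share groups of libraries, so their values are given side by side and are not independent of each other.

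**Figure D1:**
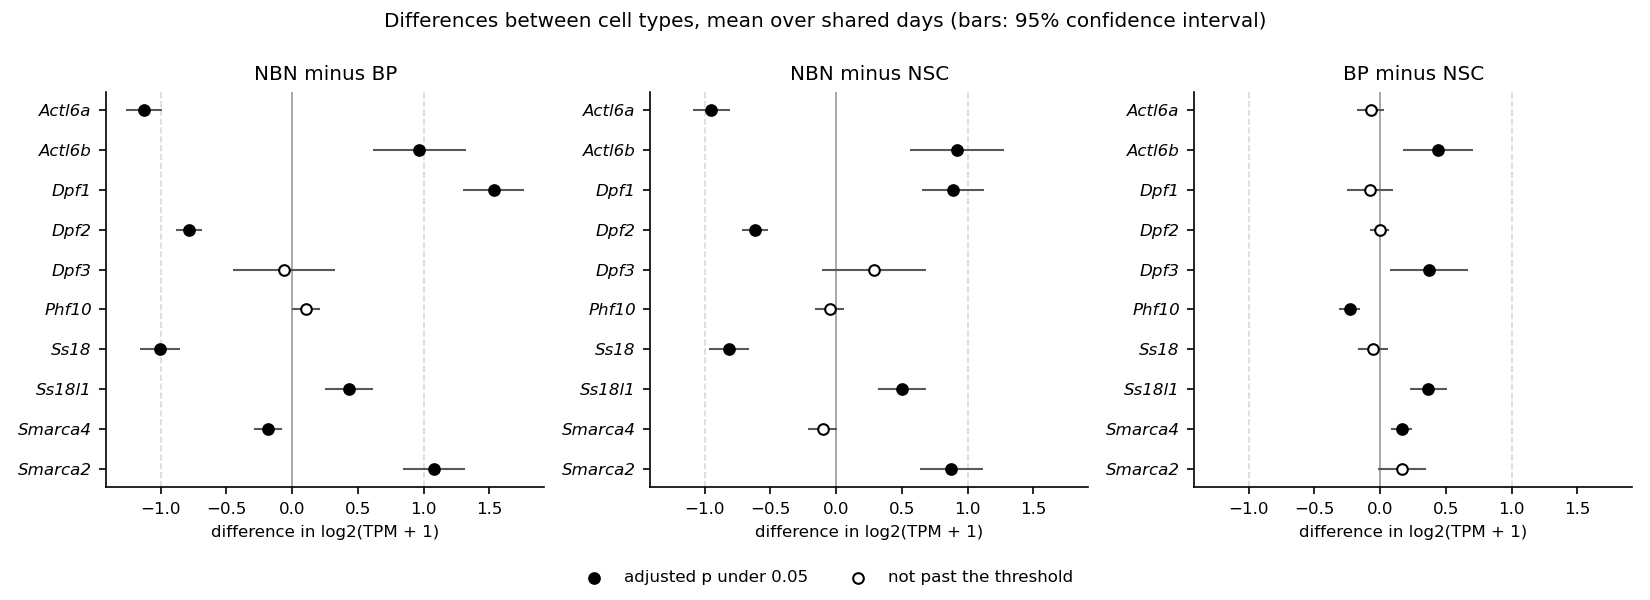
Difference in log2(TPM + 1) for the 10 members in NBN minus BP, NBN minus NSC (both the mean over E15.5 to E18.5) and BP minus NSC (the mean over E12.5 to E18.5). Points are estimates from the fit over 63 libraries, bars 95% confidence intervals, filled points passed, and dashed lines mark 2-fold. Dpf1 at 1.53 and Actl6a at -1.12 are the ends of the NBN minus BP panel, and all 10 points of the BP minus NSC panel lie within 2-fold.

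Actl6a and Actl6b encode the actin-related subunit of the complex, Actl6a in dividing progenitors and Actl6b in neurons. From E15.5 to E18.5 Actl6a lay at a lowest, median and highest level of 28.0, 37.8 and 51.6 TPM in NBN, 64.7, 78.7 and 105.6 TPM in BP and 52.7, 71.4 and 109.0 TPM in NSC. Every NBN library was thus below every BP and NSC library. The log2 difference was -1.12 ± 0.07 (SE) for NBN minus BP (limma adjusted p = 1.52e-19) and -0.95 ± 0.07 for NBN minus NSC (limma adjusted p = 1.78e-16). Both contrasts passed on all 4 days. Of all genes, 31.3, 27.5, 42.3 and 34.2% passed in NBN minus BP on the days E15.5 to E18.5, and 30.8, 12.4, 13.2 and 48.6% in NBN minus NSC. Actl6a had single-day differences of -1.26 to -1.01 against BP and -1.40 to -0.69 against NSC.

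Actl6b ran the other way. Its lowest, median and highest levels were 308, 356 and 398 TPM in NBN, 118, 181 and 236 TPM in BP and 78.1, 223 and 309 TPM in NSC. All NBN libraries were above all BP libraries, while 1 NSC library at 309 TPM, replicate 1 at E17.5, reached the lowest NBN library. The log2 difference was 0.97 ± 0.18 for NBN minus BP (limma adjusted p = 5.22e-06) and 0.92 ± 0.18 for NBN minus NSC (limma adjusted p = 1.99e-05). Day by day Actl6b passed against BP at E15.5 and E17.5, and missed at E16.5 (0.81 ± 0.36) and E18.5 (0.77 ± 0.36). Against NSC it passed on 2 of 4 days, with differences of 0.50 to 1.73. Of the summed TPM of the pair, Actl6b made up a median of 90.6% in NBN (range 87.0 to 93.0%), 69.8% in BP (52.9 to 75.2%) and 76.7% in NSC (45.6 to 85.3%) of the same days. Actl6b was thus the larger part of the pair in every BP as well as every NBN library.

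**Figure D2:**
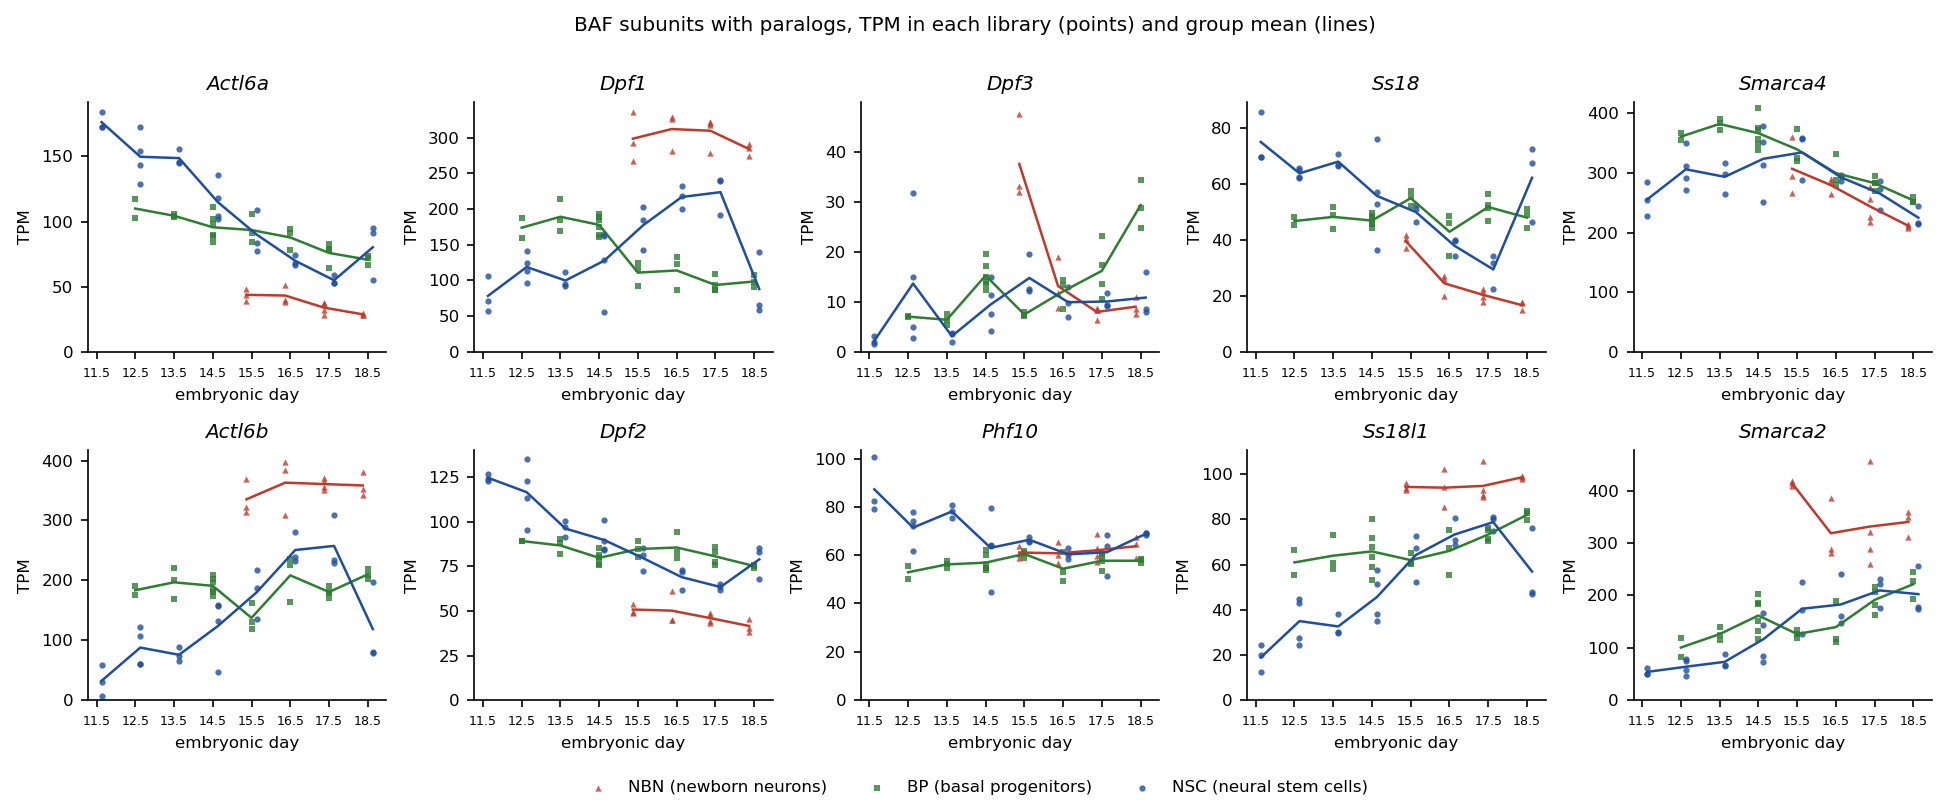
TPM of the 10 members by embryonic day, 1 point per library and a line through the group means, for NBN (triangles), BP (squares) and NSC (circles), each panel with its own axis from 0. NBN lie below the other cell types for Actl6a and Dpf2 and above them for Dpf1, Ss18l1 and Smarca2. NSC at E18.5 lie apart from those of E17.5 in Actl6b, Dpf1 and Ss18.

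Dpf1, Dpf2, Dpf3 and Phf10 encode the subunit with paired PHD fingers, which reads modified histone tails. Dpf1, of neurons, was the member with the largest difference between NBN and BP. It lay at a lowest, median and highest level of 268, 292 and 335 TPM in NBN, 86.0, 97.4 and 133 TPM in BP and 59.0, 196 and 240.1 TPM in NSC from E15.5 to E18.5. NBN overlapped with neither. The log2 difference was 1.53 ± 0.12 for NBN minus BP (limma adjusted p = 3.35e-16), a 2.89-fold difference that passed and was over 2-fold on each of the 4 days. Against NSC it was 0.89 ± 0.12 (limma adjusted p = 9.71e-09), with passes at E15.5 and E18.5 and differences of 0.52 ± 0.24 at E16.5 and 0.47 ± 0.22 at E17.5 that missed the threshold.

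Dpf2, found in most cell types, went the opposite way at 38.3, 45.8 and 61.0 TPM in NBN, 74.0, 80.2 and 94.4 TPM in BP and 61.9, 72.4 and 85.4 TPM in NSC (lowest, median and highest). The highest NBN library, replicate 3 at E16.5, was just below the lowest NSC library. NBN minus BP was -0.78 ± 0.05 (limma adjusted p = 1.77e-19) and NBN minus NSC -0.62 ± 0.05 (limma adjusted p = 2.45e-15), and both passed on all 4 days. Phf10, the member of this family named for neural progenitors, was nearly level. It lay between 56.8 and 68.7 TPM in NBN, 49.1 and 61.9 TPM in BP and 51.4 and 69.2 TPM in NSC, and its log2 difference was 0.10 (95% interval 0.00 to 0.21) for NBN minus BP and -0.05 (-0.16 to 0.06) for NBN minus NSC. Neither passed, and both intervals lie within 2-fold.

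Dpf3 was the least abundant member, and the only member with both signs over the 4 days in NBN minus BP. At E15.5 it stood at 32.04, 47.7 and 33.1 TPM in the NBN libraries, against 7.94, 7.19 and 7.33 TPM in BP and 12.3, 12.55 and 19.6 TPM in NSC. At E18.5 the order was turned between NBN and BP, with 7.52, 8.56 and 11.1 TPM in NBN, against 24.8, 28.8 and 34.5 TPM in BP, and NSC had 16.1, 8.57 and 7.98 TPM. The groups of NBN and BP did not overlap on either day. NBN minus BP was 2.16 ± 0.40 at E15.5 (limma adjusted p = 2.47e-05), 0.08 ± 0.40 at E16.5, -0.89 ± 0.35 at E17.5 (limma adjusted p = 0.034) and -1.60 ± 0.40 at E18.5 (limma adjusted p = 0.00127). The mean over the 4 days was -0.06 ± 0.19. Without E15.5, an alternative added after the data were seen, it was -0.80 ± 0.22 (limma adjusted p = 0.00179) and 9 of 10 members passed, where 55.6% of all genes did. Together Dpf1 and Dpf3 made up a median of 74.4% of the summed TPM of the 4 genes in NBN (71.6 to 77.2%), 46.6% in BP (40.4 to 50.6%) and 60.5% in NSC (30.2 to 68.6%). Most of this share was Dpf1, so it does not follow the course of Dpf3.

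Ss18 and Ss18l1 encode a subunit that binds the ATPase module, Ss18l1 being the form known from dendrite growth in neurons. Ss18 lay at a lowest, median and highest level of 14.8, 21.5 and 41.6 TPM in NBN, 34.3, 50.9 and 57.6 TPM in BP and 22.3, 43.2 and 72.6 TPM in NSC from E15.5 to E18.5. Over the 4 days together the groups overlapped, since all 3 NBN libraries of E15.5 (40.2, 41.6 and 37.0 TPM) were above the lowest BP library. On each day taken alone every NBN library was below every BP library. The log2 difference for NBN minus BP was -0.46 ± 0.15 at E15.5, -0.78 ± 0.15 at E16.5, -1.31 ± 0.13 at E17.5 and -1.47 ± 0.15 at E18.5, and each passed. Its mean was -1.004 ± 0.07 (limma adjusted p = 1.68e-16), and NBN minus NSC was -0.81 ± 0.08 (limma adjusted p = 5.05e-13). Against NSC Ss18 passed on 3 of 4 days, with differences of -1.81 to -0.33.

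Ss18l1 moved less, at 85.3, 94.4 and 105.9 TPM in NBN, 55.4, 71.4 and 83.5 TPM in BP and 46.8, 71.9 and 81.2 TPM in NSC. All NBN libraries were above all others of these days. NBN minus BP was 0.43 ± 0.09 (limma adjusted p = 4.48e-05) and NBN minus NSC 0.50 ± 0.09 (limma adjusted p = 7.42e-06), a 1.35-fold and a 1.41-fold difference. Ss18l1 passed on 2 of 4 days in each contrast, with single-day differences of 0.26 to 0.60 against BP and 0.26 to 0.82 against NSC. The share of Ss18l1 in the pair was 80.9% in NBN (69.1 to 87.0%), 59.5% in BP (51.2 to 65.2%) and 62.6% in NSC (39.2 to 77.1%). In NBN the share was 69.1 to 71.7% at E15.5 and 84.7 to 87.0% at E18.5, and the level of Ss18 was the part that differed between these days.

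Smarca4 and Smarca2 encode the alternative ATPases of the complex. Smarca4 was at a high and similar level everywhere, 208 to 359.9 TPM in NBN, 251 to 374 TPM in BP and 214 to 359 TPM in NSC from E15.5 to E18.5. Its NBN minus BP difference of -0.18 ± 0.05 passed (limma adjusted p = 0.0032) although it was a 0.88-fold level, and it did not pass with median-of-ratios scaling (-0.12, limma adjusted p = 0.083) or on any single day. Smarca2 was at a lowest, median and highest level of 260.2, 349.7 and 457 TPM in NBN, 112, 182 and 244 TPM in BP and 127, 177 and 257 TPM in NSC. All NBN libraries were above all BP and NSC libraries. NBN minus BP was 1.08 ± 0.12 (limma adjusted p = 3.72e-11) and NBN minus NSC 0.88 ± 0.12 (limma adjusted p = 1.94e-08). The difference from BP was 1.71 ± 0.24 at E15.5, 1.21 ± 0.24 at E16.5, 0.76 ± 0.21 at E17.5 and 0.62 ± 0.24 at E18.5, and passed each time. Against NSC Smarca2 passed on 3 of 4 days, with differences of 0.64 to 1.28. Smarca2 made up a median of 58.6% of the summed TPM of both ATPases in NBN (49.3 to 62.7%), 36.4% in BP (24.0 to 49.2%) and 44.2% in NSC (26.1 to 51.3%).

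**Figure D3:**
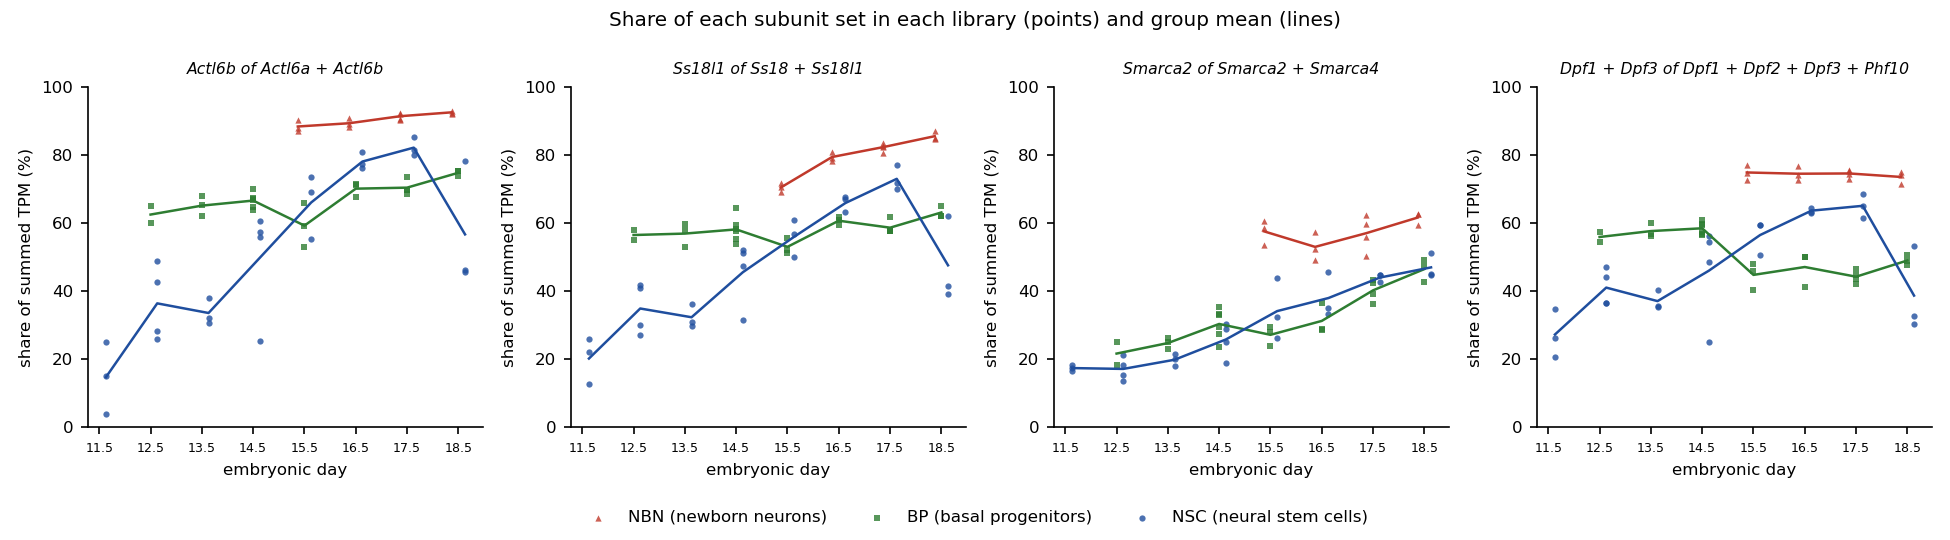
Share of summed TPM held by Actl6b, by Ss18l1, by Smarca2 and by Dpf1 with Dpf3 within their sets, by embryonic day. There is 1 point per library and a line through the group means, for NBN (triangles), BP (squares) and NSC (circles), on axes from 0 to 100%. The NBN points are above those of BP in all 4 panels, and the NSC means are higher at E17.5 than at E11.5. At E18.5 the NSC mean is lower than at E17.5 in 3 panels and not in that of Smarca2.

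Other transcripts moved with NBN minus BP. All 8 basal progenitor and all 8 division markers were lower in NBN and passed, and 6 of 10 neuron markers were higher, among them Bcl11b, which is also on the list of other BAF subunits. Of the stem cell markers 1 was higher and 4 of 8 lower, of the interneuron markers 3 higher and 1 of 9 lower, and of the oligodendrocyte markers 4 of 5 higher. Of the Cajal-Retzius markers 1 was higher and 1 of 6 lower, of the endothelium markers 1 higher and 1 of 7 lower, of the erythroid markers 1 of 6 higher, and of the 5 meninges markers none passed. All 9 microglia markers were higher in NBN and passed, their sum lying at 4.42 to 144 TPM in NBN and 2.69 to 17.53 TPM in BP, and only 1 of the 9 was at 0 in any NBN library. In NBN minus NSC all 9 interneuron markers were lower and passed (12.2 to 66.4 TPM in NBN and 151 to 528 TPM in NSC). Also lower in NBN than in NSC and past the threshold were 8 of 8 stem cell, 8 of 8 division, 8 of 8 basal progenitor and 5 of 5 oligodendrocyte markers and 1 of 7 endothelium markers. Higher were 9 of 9 microglia, 7 of 10 neuron, 5 of 6 Cajal-Retzius, 4 of 6 erythroid and 4 of 7 endothelium markers. The part of these transcripts in the values of the members was not tested.

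Between BP and NSC 8 members had both signs over the 7 days, while Phf10 was lower and Smarca4 higher in BP on each of the 7. Signs were counted here whether or not a day passed. No share of all genes is given for these signs, so the count is not a result about the members. Averaged over 7 days, Actl6b (0.44 ± 0.13), Ss18l1 (0.37 ± 0.07), Dpf3 (0.37 ± 0.15) and Smarca4 (0.16 ± 0.04) were higher in BP and Phf10 lower (-0.23 ± 0.04), each with a limma adjusted p of at most 0.0332. The call of Dpf3 ended when any of 7 libraries was left out (NSC replicates 3 and 4 at E12.5, 3 at E13.5, 1 at E14.5, 3 at E16.5 and 3 at E18.5, and BP replicate 2 at E12.5), and it also ended without E18.5. On the single days E12.5 to E18.5, 28.6, 32, 20.6, 7.84, 4.76, 15.3 and 21.8% of all genes passed in this contrast. At E13.5 Actl6b had 169, 221 and 201 TPM in BP, against 73.8, 88.5 and 64.6 TPM in NSC, and at E17.5 it had 181, 191, 171 and 179 TPM in BP, against 309, 229 and 234 TPM in NSC. BP were thus above NSC without overlap at E13.5 and below them without overlap at E17.5. The log2 difference was 1.37 ± 0.36 at E13.5 (limma adjusted p = 0.00285) and -0.50 ± 0.34 at E17.5, where it did not pass (limma adjusted p = 0.361). The neuron marker sum turned between the same days, at 7531 to 8089 TPM in BP and 3112 to 4243 TPM in NSC at E13.5, and at 5206 to 5915 TPM in BP and 6542 to 7130 TPM in NSC at E17.5. Over the 7 days 8 of 10 neuron, 7 of 8 basal progenitor, 6 of 6 Cajal-Retzius and 5 of 7 endothelium markers were higher in BP and passed. Lower in BP and past the threshold were 8 of 8 stem cell, 6 of 8 division, 9 of 9 interneuron, 5 of 5 oligodendrocyte and 5 of 9 microglia markers, and 1 each of the neuron, endothelium, erythroid and meninges markers. The part of these transcripts in the turns of Actl6b and of the members that follow was not tested.

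Dpf1 turned between the same days, as the neuron marker sum did, with passes on both sides, at 0.91 ± 0.24 at E13.5 (limma adjusted p = 0.00253) and -1.24 ± 0.22 at E17.5 (limma adjusted p = 7.28e-05). At E13.5 it had 169, 214 and 184.5 TPM in BP, against 95.4, 112 and 92.1 TPM in NSC, and at E17.5 it had 93.0, 108, 86.7 and 86.6 TPM in BP, against 239, 192 and 240.1 TPM in NSC. Ss18 turned in the other direction, at -0.49 ± 0.15 at E13.5 (limma adjusted p = 0.0114) and 0.81 ± 0.14 at E17.5 (limma adjusted p = 5.8e-05). With the early and later days fitted apart, alternatives added after the data were seen, 9 of 10 members passed over E12.5 to E14.5 (51.1% of all genes), and 4 over E15.5 to E17.5 (27.3%). Over the early days Actl6b (1.09), Ss18l1 (0.77), Dpf1 (0.68), Smarca2 (0.66) and Smarca4 (0.27) were higher in BP and Actl6a (-0.40), Ss18 (-0.38), Phf10 (-0.34) and Dpf2 (-0.23) lower. Over the later days Ss18 (0.37), Actl6a (0.28) and Dpf2 (0.25) were higher in BP and Dpf1 (-0.95) lower.

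In NSC all members changed over the days. The course was tested as the linear slope through the group means, given as the log2 change over the span E11.5 to E18.5. All 10 passed, where 64.9% of all genes did (37.1% rising and 27.7% falling): Actl6b (2.38 ± 0.27), Smarca2 (2.18 ± 0.18), Ss18l1 (1.74 ± 0.14), Dpf3 (1.503 ± 0.30) and Dpf1 (0.76 ± 0.18) rose with age, and Actl6a (-1.57 ± 0.11), Dpf2 (-0.88 ± 0.07), Ss18 (-0.85 ± 0.11), Phf10 (-0.37 ± 0.08) and Smarca4 (-0.18 ± 0.08) fell. The limma adjusted p was 0.0493 for Smarca4 and at most 0.000217 for the others. The Smarca4 call was lost when any of 15 of the 26 NSC libraries was left out, and its sign was reversed without E18.5 (0.05). Actl6a averaged 176 ± 6.5 TPM at E11.5 and 55.0 ± 3.5 TPM at E17.5 (SD, n = 3 each), and Actl6b 32.1 ± 25.3 TPM and 257 ± 44.4 TPM on the same days. The share of Actl6b in its pair was 3.9, 15.2 and 25.1% in the E11.5 libraries and 79.9, 81.3 and 85.3% in those of E17.5.

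Levels of some members in NSC are set side by side for E18.5 and E17.5. These days were not compared by a test, and no share of all genes is given for libraries that do not overlap between them. Such non-overlap is therefore not a result about the members. At E18.5 Actl6b had 198, 79.6 and 78.1 TPM in NSC, where it had 309, 229 and 234 TPM at E17.5, and no library of E18.5 reached those of the day before. Dpf1 had 140.0, 65.0 and 59.0 TPM at E18.5 and 239, 192 and 240.1 TPM at E17.5, again without overlap. Ss18 had 46.5, 67.5 and 72.6 TPM at E18.5 and 22.3, 31.8 and 34.2 TPM at E17.5, without overlap in the other direction. Smarca2 overlapped between these days, at 257, 173 and 177 TPM against 176, 222 and 231 TPM. Measured from first to last day instead of by slope, the change of Dpf1 (0.10 ± 0.24), Ss18 (-0.28 ± 0.15) and Smarca4 (-0.18 ± 0.11) did not pass in NSC, while the other 7 did. No share of all genes is given for that measure. Replicates 2 and 3 of E18.5 were the libraries with the lower Actl6b shares, 45.6 and 46.1%, against 78.3% in replicate 1.

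Marker sums moved with these values. The neuron marker sum in NSC was 1013, 2403 and 3172 TPM at E11.5 and 6542 to 8132 TPM at E16.5 and E17.5. At E18.5 it was 5844 TPM in replicate 1 and 3524 and 3178 TPM in replicates 2 and 3, whose stem cell marker sums were 6664 and 6655 TPM, against 3209 TPM in replicate 1. The same held within a day at E14.5, where replicate 1 had an Actl6b share of 25.5% and a neuron marker sum of 3211 TPM, and the other 3 libraries had shares of 55.8 to 60.7% and sums of 5035 to 6491 TPM. All 8 division markers fell along the NSC slope and passed, but their sum was 281 to 322 TPM at E17.5 and 619 to 1163 TPM at E18.5. The oligodendrocyte marker sum was 27.9 to 77.9 TPM at E17.5 and 269.6 to 551 TPM at E18.5. Along the slope 9 of 9 microglia, 5 of 5 oligodendrocyte, 5 of 5 meninges, 8 of 10 neuron, 4 of 7 endothelium and 4 of 6 erythroid markers rose and passed. Falling were 6 of 8 stem cell and 4 of 6 Cajal-Retzius markers and 1 erythroid marker. The other 2 stem cell markers rose and passed, as did 1 Cajal-Retzius and 1 of 9 interneuron markers. Of the basal progenitor markers 3 rose and 4 of 8 fell. How much of the course of the members in NSC came with these transcripts was not tested.

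**Figure D4:**
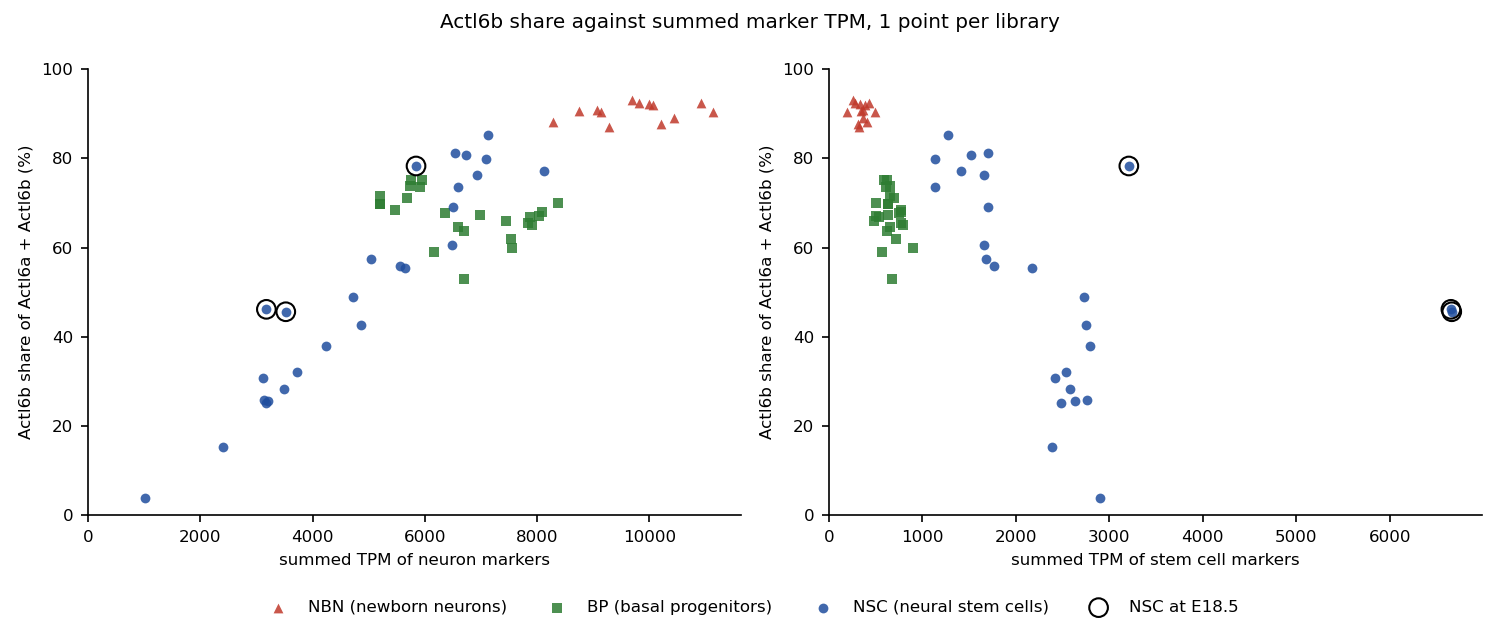
Share of Actl6b in the summed TPM of Actl6a and Actl6b against the summed TPM of 10 neuron markers (left) and of 8 stem cell markers (right), 1 point per library, for NBN (triangles), BP (squares) and NSC (circles), with NSC of E18.5 ringed. Among NSC the share runs from 3.9 to 85.3% and is higher in libraries with a larger neuron marker sum, and 2 ringed libraries have stem cell marker sums of 6664 and 6655 TPM. NBN lie between 87.0 and 93.0%.

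In BP 5 of 10 members passed over E12.5 to E18.5, where 42.6% of all genes did (27.5% rising and 15.1% falling). Dpf3 (1.65 ± 0.34) and Smarca2 (0.95 ± 0.21) rose and Dpf1 (-1.09 ± 0.20), Actl6a (-0.63 ± 0.12) and Smarca4 (-0.57 ± 0.09) fell. Dpf1 was lower after E14.5, a cut chosen after its values were seen. It had 160.0 to 214 TPM in the 11 BP libraries up to E14.5 and 86.0 to 133 TPM in the 13 later ones, without overlap. A step was not tested against a linear course, and no share of all genes is given for this cut. The neuron marker sum of BP was 6587 to 8372 TPM up to E14.5 and 5206 to 7452 TPM later. Along the BP slope 7 of 7 endothelium, 5 of 6 erythroid, 4 of 8 stem cell, 3 of 5 meninges, 2 of 5 oligodendrocyte and 2 of 8 basal progenitor markers and 1 neuron marker rose and passed. Falling were 7 of 8 division, 6 of 10 neuron, 4 of 6 Cajal-Retzius and 2 of 8 basal progenitor markers, and 1 each of the stem cell and erythroid markers. The part of these transcripts in the fall of Dpf1 was not tested. Actl6b, at 0.10 ± 0.31, did not pass in BP.

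In NBN over E15.5 to E18.5, 5 of 10 members fell and none rose, where 16% of all genes passed (10.9% rising and 5.08% falling): Dpf3 (-1.92 ± 0.38), Ss18 (-1.15 ± 0.14), Actl6a (-0.62 ± 0.13), Smarca4 (-0.53 ± 0.10) and Dpf2 (-0.29 ± 0.09). Without E18.5 the calls of Smarca4 and Dpf2 ended, and that of Dpf2 also ended without NBN replicate 1 at E15.5 (-0.25), replicate 1 at E18.5 (-0.24) or replicate 2 at E18.5 (-0.28). Actl6b (0.09 ± 0.34), Ss18l1 (0.06 ± 0.18), Dpf1 (-0.06 ± 0.22) and Smarca2 (-0.25 ± 0.23) did not pass. Over the same days 7 of 8 basal progenitor markers fell in NBN and passed, with changes of -2.72 ± 0.41 for Eomes and -1.51 ± 0.28 for Neurog2, and their sum was 214 to 367 TPM at E15.5 and 147 to 170.3 TPM at E18.5. All 9 microglia, 4 of 5 oligodendrocyte, 3 of 7 endothelium and 2 of 8 stem cell markers rose and passed, as did 1 neuron marker, while 2 of 10 neuron markers fell. None of the division, interneuron, Cajal-Retzius, erythroid and meninges markers passed. The part of these transcripts in the falls of the members was not tested.

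The courses were compared directly as differences of slopes. In NBN minus BP over E15.5 to E18.5, 3 of 10 members passed, where 3.41% of all genes did: Dpf3 (-3.68 ± 0.53, limma adjusted p = 6.54e-06), Smarca2 (-1.11 ± 0.32, limma adjusted p = 0.0398) and Ss18 (-1.06 ± 0.20, limma adjusted p = 0.000581). The call of Smarca2 ended when any of 14 of the 26 libraries was left out, while those of Dpf3 and Ss18 held in all 26. In BP minus NSC over E12.5 to E18.5, 7 passed, where 29.8% of all genes did. Dpf1 (-1.43 ± 0.27), Actl6b (-1.13 ± 0.41), Smarca2 (-0.92 ± 0.28) and Ss18l1 (-0.77 ± 0.21) had lower slopes in BP and passed. Dpf3 (0.94 ± 0.46, limma adjusted p = 0.118) did not pass. Actl6a (0.73 ± 0.16), Ss18 (0.70 ± 0.17) and Dpf2 (0.51 ± 0.11) had higher slopes in BP and passed. As a difference between the last and the first day 1 member passed (Dpf3, 1.79). The share of all genes is not given for that measure, so this count is not a result about the members. The call of Actl6b ended without NSC replicate 3 or 4 at E12.5 (-1.04 and -1.03), NSC replicate 1 at E18.5 (-0.85) or BP replicate 1 (-1.17) or 2 (-1.09) at E12.5, and that of Smarca2 without BP replicate 2 at E12.5 (-0.75). In NBN minus NSC only Ss18 passed (-1.30 ± 0.21, limma adjusted p = 1.17e-05), where 10.6% of all genes did, and it did not pass without E18.5 (-0.17).

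Ordered by group mean, the 4 NBN groups stood at the top of the 19 for Actl6b, Dpf1, Ss18l1 and Smarca2. For Actl6a and Ss18 the last 3 places were NBN of E16.5, E17.5 and E18.5, and the first was NSC of E11.5. Neighbours in the order mostly overlapped: of 18 neighbouring pairs, 14 overlapped for Actl6a, all 18 for Smarca4 and 15 to 17 for the others. For Actl6b, Dpf1, Ss18l1 and Smarca2 the lowest NBN group and the group below it did not overlap, as for Actl6b (NBN at E15.5 with 335 ± 29.4 TPM and NSC at E17.5 with 257 ± 44.4 TPM) and for Dpf1 (NBN at E18.5 with 284 ± 8.6 TPM and NSC at E17.5 with 224 ± 27.6 TPM). For Dpf3 the first places were NBN at E15.5 (37.6 ± 8.7 TPM) and BP at E18.5 (29.4 ± 4.8 TPM), which overlapped.

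Genes with the most similar pattern were found by Pearson's r over the 19 group means of log2(TPM + 1) among 11245 genes, as a description. Each group has its own libraries, but groups of 1 cell type and of 1 day are not independent points. Nearest to Actl6b were Stmn3, Atat1 and Gp1bb (r of 0.99 each), and nearest to Ss18l1 were Unc13a, Pcyt1b and Clcn4-2 (0.99 each). Actl6a was nearest to Sept1, Cbx2 and Zfp516 (0.98 to 0.99) and Dpf2 to Hdac1, Ift52 and Sec23b (0.98 to 0.99). Dpf1 was nearest to Pik3cd, Camk1g and Pde4a (0.96 to 0.97), Smarca2 to Slc8a1, Nptn and Cacna1d (0.98 each) and Ss18 to Clint1, Rcbtb2 and Sin3a (0.97 to 0.98). Phf10 was nearest to Pprc1, Nsun2 and Pabpc1 (0.95 to 0.96) and Smarca4 to Zswim4, Otud5 and Mknk2 (0.92 to 0.98). Dpf3 had the least similar neighbours, Tsnax, Srgap3 and Lrrtm4 (0.83 to 0.89). Among the members themselves r was 0.98 between Actl6a and Dpf2 and between Actl6b and Ss18l1, 0.91 between Actl6a and Ss18, and -0.95 between Actl6a and Smarca2.

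Of 23 other BAF subunits listed, 21 were tested, and some of them also have paralogs, such as Smarcd2 and Smarcd3. In NBN minus BP 5 were higher, 10 lower and 6 did not pass, with none 2-fold. Their median log2 difference was -0.17, against -0.06 over all genes tested. Of all genes, 58.5% passed in NBN minus BP, 54.6% in NBN minus NSC and 48% in BP minus NSC. The median size of the difference was 0.26 over these 21 and 0.88 over the 10 members in NBN minus BP, 0.16 and 0.71 in NBN minus NSC, and 0.19 and 0.16 in BP minus NSC. Smarcd3, a BAF60 subunit known from heart and muscle development, was higher in NBN (0.50 ± 0.07), as were Gltscr1l (0.36 ± 0.09) and Bcl7c (0.14 ± 0.04). Smarcd2, its paralog, was lower (-0.78 ± 0.07), as were the core subunit Smarce1 (-0.40 ± 0.05) and Bcl7a (-0.38 ± 0.06). In NBN minus NSC 3 were higher and 8 lower, led by Gltscr1l (0.41 ± 0.09), Smarcd3 (0.24 ± 0.08) and Bcl11a (0.32 ± 0.12), and by Smarcd2 (-0.45 ± 0.07), Smarce1 (-0.16 ± 0.05) and Smarcd1 (-0.14 ± 0.05). In BP minus NSC 10 were higher and 2 lower, led by Bcl7a (0.35 ± 0.04), Smarcd2 (0.37 ± 0.05) and Smarcc2 (0.24 ± 0.05), with Bcl7c (-0.25 ± 0.03) and Smarcd3 (-0.26 ± 0.06) lower.

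**Figure D5:**
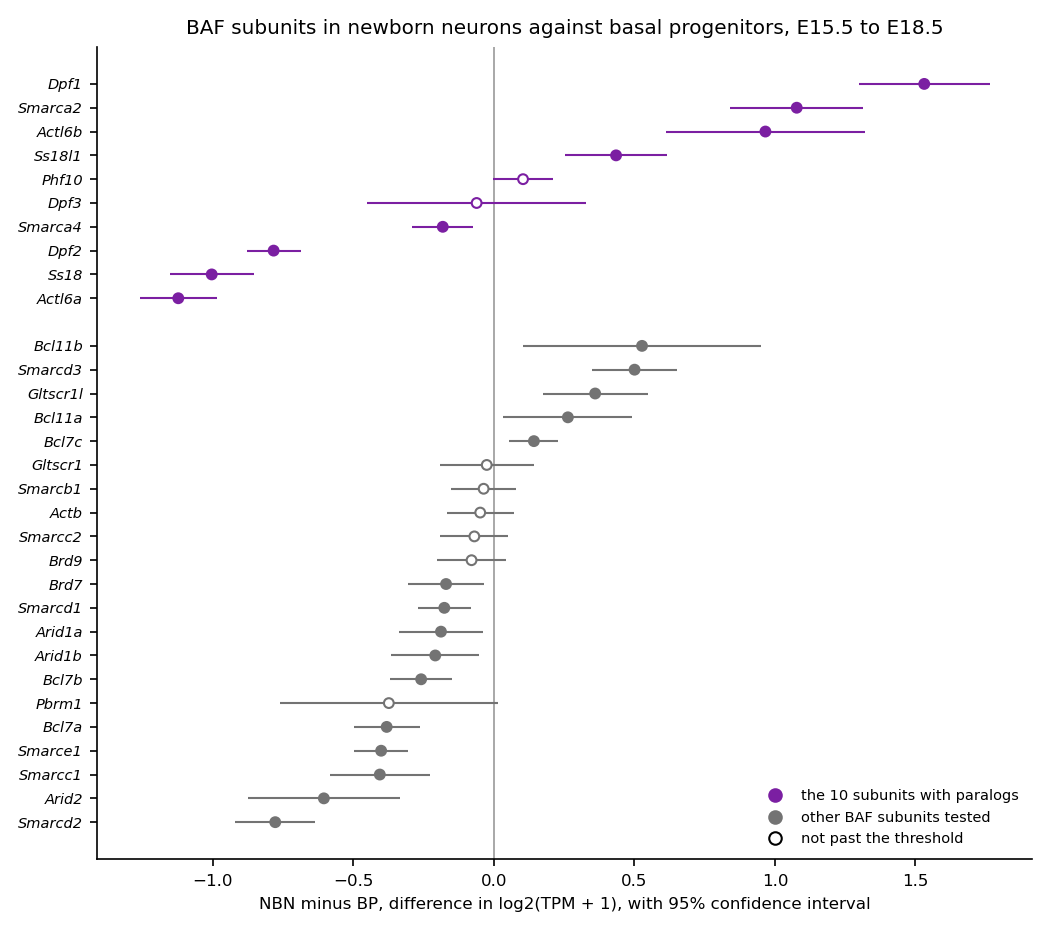
NBN minus BP difference in log2(TPM + 1), the mean over E15.5 to E18.5, for the 10 members (upper block) and 21 other BAF subunits (lower block). Bars are 95% confidence intervals, and open points are genes that did not pass. The key names the members as subunits with paralogs, but some genes of the lower block also have paralogs, such as Smarcd2 and Smarcd3. The upper block runs from -1.12 to 1.53 and the lower block from -0.78 to 0.53.

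ATPases of other remodelling complexes served as a comparison. Of 16 tested, 2 were higher in NBN than in BP, 11 lower and 3 did not pass, with a median log2 difference of -0.40. The share of all genes that passed was 58.5% in NBN minus BP, 54.6% in NBN minus NSC and 48% in BP minus NSC. Chd5, an ATPase known from neurons, was higher (1.49 ± 0.16), as was Smarca1 (0.83 ± 0.18). Chd7 (-2.18 ± 0.16), Chd4 (-0.75 ± 0.07) and Hells (-1.28 ± 0.23), the last of which is known from dividing cells, were lower. In NBN minus NSC 3 were higher (Chd5, Smarca1 and Chd3) and 8 lower, led by Chd7 (-1.82 ± 0.17), Chd4 (-0.46 ± 0.07) and Hells (-1.46 ± 0.24). In BP minus NSC 4 were higher, led by Chd4 (0.26 ± 0.05), Chd3 (0.23 ± 0.05) and Chd8 (0.21 ± 0.07), and Hells was lower (-0.63 ± 0.18).

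Of 10 listed regulators, 6 were in the table. Rest, the repressor that holds down neuronal genes and miR-9, was low in all cells from E15.5 to E18.5, with 3.50 to 10.3 TPM in NBN, 1.02 to 2.68 TPM in BP and 3.21 to 9.13 TPM in NSC. NBN minus BP was 1.14 ± 0.17 (limma adjusted p = 1.57e-07) and BP minus NSC -1.07 ± 0.13 (limma adjusted p = 2.54e-09), so the lowest levels were in BP. Its cofactors were lower in NBN than in BP, with differences of -1.66 ± 0.07 for Rcor2 and -0.56 ± 0.11 for Rcor1. In NBN minus NSC these were -1.04 ± 0.07 and -0.30 ± 0.11, and both passed, while Rest did not (-0.06 ± 0.18). Rcor2 was higher in BP than in NSC (0.39 ± 0.05). Ptbp1, a splicing repressor of non-neural cells and itself a known target of miR-124, had 51.8 to 77.3 TPM in NBN, 143 to 181 TPM in BP and 114.9 to 266 TPM in NSC, without overlap of NBN with either (NBN minus BP -1.39 ± 0.08, limma adjusted p = 1.35e-19). Averaged over 7 days it was lower in BP than in NSC (-0.53 ± 0.06), but at E17.5 it stood at 170.4 to 178.8 TPM in BP and 114.9 to 142.5 TPM in NSC, without overlap in the other direction. Ptbp2, its neural paralog, was slightly lower in NBN than in BP (-0.22 ± 0.10, limma adjusted p = 0.0457). C130071C03Rik, the gene that holds Mir9-2, did not pass in NBN minus BP (-0.10 ± 0.16) and was higher in BP than in NSC (0.32 ± 0.12, limma adjusted p = 0.0324). These libraries measure the host transcript and not the mature microRNA.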

How the data were processed

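RNA-seq of 63 libraries was analysed from the gene-level TPM values the authors deposited, made with kallisto 0.43.0 on GRCm38.p2 (mm10) per the submitters' processing notes. The labels name no annotation release. TPM holds no counts, so no detection limit per gene was computed. The 15231 genes that reached 1 TPM in 3 or more libraries were tested with limma 3.58.1 in R 4.3.3 on log2(TPM + 1), a scale that understates changes of low genes, with 1 mean for each of 19 groups, a trended variance and Benjamini-Hochberg adjustment over all genes tested. Contrasts were means of same-day differences, slopes through group means and their differences, and 15 single-day differences. Shares and marker sums were computed in Python 3.11.15. The members, lists and tests were chosen with earlier results of these data known. All 10 members were named in each comparison; of the other lists, the 3 of smallest adjusted p in each direction among those that passed, and the regulators in the table. Every column was mapped to a sample, and no libraries were identical. The tests were checked on simulated data first. The simulated noise was independent between libraries, so that check does not cover libraries that deviate together.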

Additional observations from a re-analysis of the deposited data

Results flagged for a closer look

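One library stood far from the others of its group. Dpf1 had 278.2 TPM in NBN replicate 4 at E17.5, where the other 3 libraries of that group had 317.63 to 321.8 TPM. Of 50 pairs of group and gene looked at, this was the 1 that passed Dixon's criterion, which chance alone meets in about 1 of 20 groups.

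Some courses over the days differed between cell types by a test of the difference of slopes (limma, adjusted over all genes) and by over 2-fold across the span. For NBN minus BP over E15.5 to E18.5 the difference was -3.68 ± 0.53 for Dpf3 (adjusted p = 6.54e-06), -1.06 ± 0.20 for Ss18 (adjusted p = 0.000581) and -1.11 ± 0.32 for Smarca2 (adjusted p = 0.0398). For NBN minus NSC it was -1.3 ± 0.21 for Ss18 (adjusted p = 1.17e-05). For BP minus NSC over E12.5 to E18.5 it was -1.43 ± 0.27 for Dpf1 (adjusted p = 7.21e-05) and -1.13 ± 0.41 for Actl6b (adjusted p = 0.033).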

How the results depend on the processing

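Of 1090 recomputed member values, 984 kept direction and side of the threshold, 31 lost and 44 gained a pass, and 31 changed sign, in alternatives other than leaving out 1 library. Counts of members that passed in NBN minus NSC slopes (1) were 3 with pseudocount 5, 2 with median-of-ratios scaling, 7 with library weights, 3 with only the libraries of the contrast, 2 with the replicate block, 0 without E18.5, 2 as last minus first day, 3 without libraries beyond 1.5 SD on the first axis within groups, and 1 to 3 on leaving out each library. In that contrast 853 to 2679 of all genes passed on leaving out each library, against 1617 in the main fit. The NBN slope count (5) was 3 without E18.5, the BP minus NSC slope count (7) was 1 as last minus first day, and the BP minus NSC count (5) was 9 over E12.5 to E14.5. For alternatives other than leaving out 1 library, no all-gene share is given beside these counts except for E12.5 to E14.5 (51.1%). A change in such a count is therefore not a result about the members. Leaving out each library gave 8 to 9 for NBN minus BP, 7 to 8 for NBN minus NSC, 4 to 6 for BP minus NSC, 9 to 10, 5 to 6 and 4 to 5 for the NSC, BP and NBN slopes, 5 to 8 for BP minus NSC slopes and 2 to 3 for NBN minus BP slopes. Of all genes, 8629 to 8990 then passed in NBN minus BP, 7913 to 8448 in NBN minus NSC and 6826 to 7581 in BP minus NSC. For the NSC, BP and NBN slopes these counts were 9348 to 10041, 5039 to 6783 and 1667 to 2651. For BP minus NSC slopes they were 3421 to 4785, and for NBN minus BP slopes 350 to 569. Signs changed with quantile scaling for the BP slope of Ss18 (-0.0427) and the NBN minus NSC slope of Smarca4 (-0.10). With median-of-ratios scaling they changed in NBN minus BP for Dpf3 (0.001), NBN minus NSC for Phf10 (0.0297), BP minus NSC for Dpf2 (0.011), the BP slope of Actl6b (-0.0122), Phf10 (-0.0289) and Ss18 (-0.0747), and the NBN minus BP slope of Dpf2 (0.0344) and Smarca4 (0.0135). BP minus NSC of Dpf2 also changed with library weights (0.0067), the replicate block (0.0011) and without E18.5 (0.0086), and the NBN minus NSC slope of Phf10 with library weights (-0.0016). Without E18.5, NBN minus BP of Dpf3 was 0.45, the NSC slope of Smarca4 0.0518, the BP slope of Actl6b -0.0539, the NBN slope of Dpf1 0.0562, and the NBN minus NSC slopes 0.33 for Actl6a, -0.42 for Actl6b, -0.29 for Dpf1, 0.18 for Dpf2 and -0.30 for Ss18l1. BP minus NSC was 0.68 for Dpf1 over E12.5 to E14.5, and over E15.5 to E17.5 it was 0.28 for Actl6a, -0.38 for Actl6b, 0.25 for Dpf2, -0.0033 for Dpf3, 0.37 for Ss18, -0.10 for Ss18l1 and -0.32 for Smarca2. Leaving out 1 library gave -0.0161 to 0.0091 for BP minus NSC of Dpf2, -0.13 to 0.0162 for the NBN slope of Dpf1, and -0.0297 to 0.0592 and -0.0687 to 0.1277 for the NBN minus NSC slopes of Phf10 and Smarca4. The causes were not tested. Scaling moved the median of all genes by over 0.1 for the NSC slope (0.09, and -0.07 with quantile scaling) and for the slope differences NBN minus BP (-0.12, and 0.0061) and NBN minus NSC (-0.12, and 0.04).

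Same-numbered NBN and BP libraries deviated together with r over 0.1 in 12 of 13 pairs (lowest -0.15, median 0.37), and 11 of 13 NBN and 11 of 13 BP libraries correlated best with their own number, a hint from the data and not from the design. With the replicate block 8 members passed in NBN minus BP, and 9 with the block within day, where Phf10 (0.10) gained a pass. No all-gene share is given beside these counts. TPM gives no depth, so the precision of low genes such as Dpf3 could not be computed.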
